A study of Aspergillus terreus with 6 samples.

Results

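In day 2 mycelium of Aspergillus terreus, 142 annotated genes combined a high count with a nearly even count across all 6 libraries. They were chosen on these same counts. A gene had to carry an annotated identifier, reach a mean CPM of 300 (the count scaled to a column total of 1000000) over the 6 libraries, and keep its highest library under 1.5 times its lowest on the log2(CPM + 1) scale (the range limit below). They are 142 of 10784 annotated genes and of 11680 features in all, and 24.8% of the 572 annotated genes with a mean of 300 CPM or more. Since abundance and evenness made the choice, both are given below as a description with no test.

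Aterreus0G identifiers in the files are not paired with gene names, products or positions. None matched the RefSeq table of strain NIH2624 (0 of 11680 identifiers, 10551 reference genes), so the genes carry their identifiers only and no sequence is shown. A. terreus is a filamentous fungus grown industrially for itaconic acid, which it makes from the tricarboxylic acid cycle intermediate cis-aconitate. In growing fungal mycelium, the most abundant messenger RNAs commonly include those of ribosomal proteins, translation factors, glycolytic enzymes and structural proteins. Transcripts that keep an even level across conditions are used as internal references in quantitative PCR, and an abundant transcript is measured with little counting error. Which of the 142 genes belong to any such class was not determined here.

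The libraries came from mycelia of the wild-type strain AT2022, shaken at 180 rpm and 32 °C in fermentation medium and harvested on day 2. By their titles, 3 libraries are controls and 3 were grown under optimized metal ion, called metal here. The treatment label of the metal group gives 0.25 g/L ZnSO4·2H2O with 0.40 g/L FeSO4·2H2O. The control label calls the group untreated and names 0.15 g/L and 0.16 g/L of the same salts, without saying whether the control medium held them. A protocol field shared by both groups mentions taurine and not the salts, so the treatment is given only as far as the treatment labels go. Nothing in the labels says that the libraries of a group came from separate cultures, and p-values then measure only the spread between these libraries, which may be technical.

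Control 2 stood with the metal libraries and away from the other controls, also in genes outside the abundant class. Over the 5469 annotated genes with a mean CPM from 10 to under 300, its root mean square distance to the metal libraries was 0.319 to 0.373 log2 units, against 0.851 to control 1 and 0.867 to control 3. Total counts ran from 25097838 to 35124387 per library. At these depths the 142 genes had between 6856 and 506007 counts in a library.

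Together the 142 genes held between 13.0% and 14.2% of all counts. Their share was 14.2% in control 1, 13.4% in control 2 and 14.1% in control 3. It was 13.9% in metal 1, 13.0% in metal 2 and 13.8% in metal 3. The group values were 13.9% ± 0.410 in the control libraries and 13.6% ± 0.495 in the metal libraries (SD, n = 3 each). The groups overlapped, and metal 2 was lowest. The other 430 abundant genes, those over the range limit, held 48.3% ± 2.38 and 49.7% ± 0.214 (SD, n = 3 each), so the steady genes made the smaller part of the abundant transcripts in every library.

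**Figure D1:**
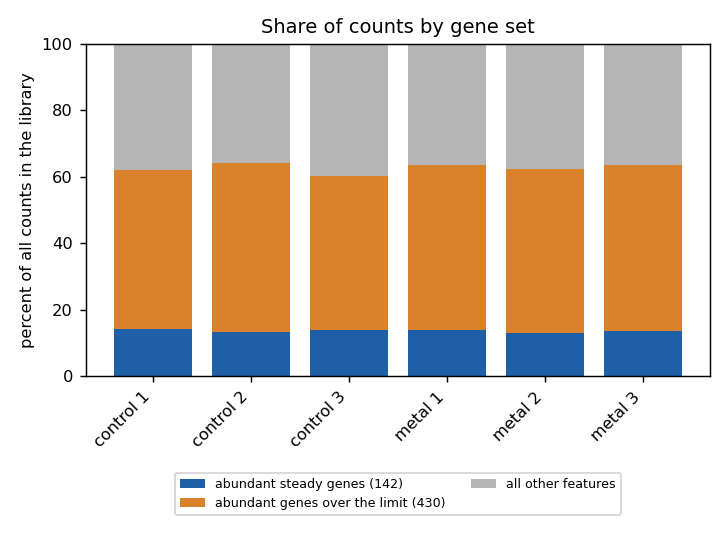
Percent of all counts in each library held by the 142 abundant steady genes, by the 430 abundant genes over the range limit and by all other features. The steady genes lie between 13.0% and 14.2% in every library.

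Counts were concentrated in few of the genes. The mean CPM ran from 300.2 to 13802, a ratio of 46.0, with a median of 549. Of the 142 genes, 66 lay from 300 to under 500 CPM, 49 from 500 to under 1000 CPM, 14 from 1000 to under 2000 CPM and 13 at 2000 CPM or more. A single gene gave 10.1% of the summed mean CPM, the top 10 gave 38.5%, and 18 genes gave 50%.

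The leading genes are given here by mean CPM, which is not scaled by length, with libraries 1, 2 and 3 of each group in order. Aterreus0G068000 was number 3 among all annotated genes by mean CPM. Its controls gave 15822, 13712 and 14126 CPM, and its metal libraries gave 15012, 11238 and 12902 CPM. Control 1 was its highest library and metal 2 its lowest, and the groups overlapped, with 14553 ± 1118 CPM in control and 13051 ± 1891 CPM in metal (SD, n = 3 each). For Aterreus0G052960 the controls gave 6991, 6798 and 6465 CPM, and the metal libraries 6185, 5561 and 6015 CPM. All 3 controls of this gene lay above all 3 metal libraries (edgeR log2 fold change -0.16 ± 0.25, SE, adjusted p = 0.812). For Aterreus0G064820 the controls gave 6057, 5643 and 6399 CPM, and the metal libraries 6884, 5319 and 6450 CPM. Its highest and its lowest library were both metal ones.

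The most even genes were of moderate abundance. Aterreus0G035710 had the smallest range, 0.133 log2 units, with 321, 340 and 345 CPM for the controls and 345, 336 and 352 CPM for the metal libraries. Control 1 was its lowest library, and the groups overlapped. Aterreus0G044050 followed with a range of 0.140 log2 units, with 347, 362 and 383 CPM for the controls and 370, 372 and 358 CPM for the metal libraries. Its lowest and highest library were both controls. Aterreus0G063040, with a range of 0.167 log2 units, gave 478, 475 and 465 CPM for the controls and 475, 443 and 426 CPM for the metal libraries. Metal 3 was the lowest library of this gene, and control 1 the highest.

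Values on either side of the limits differed little. The last genes inside the limit of 300 CPM were Aterreus0G084810 at a mean of 302.5 CPM and Aterreus0G008300 at 300.2 CPM. The first even genes outside it were Aterreus0G093630 at 299.8 CPM and Aterreus0G082950 at 296.5 CPM. At the range limit, Aterreus0G058620 (0.5815 log2 units) and Aterreus0G086150 (0.5828) were inside, and Aterreus0G050270 (0.5853) and Aterreus0G105470 (0.586) were outside. A further 94 annotated genes kept within the range limit at a mean CPM from 200 to under 300.

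**Figure D2:**
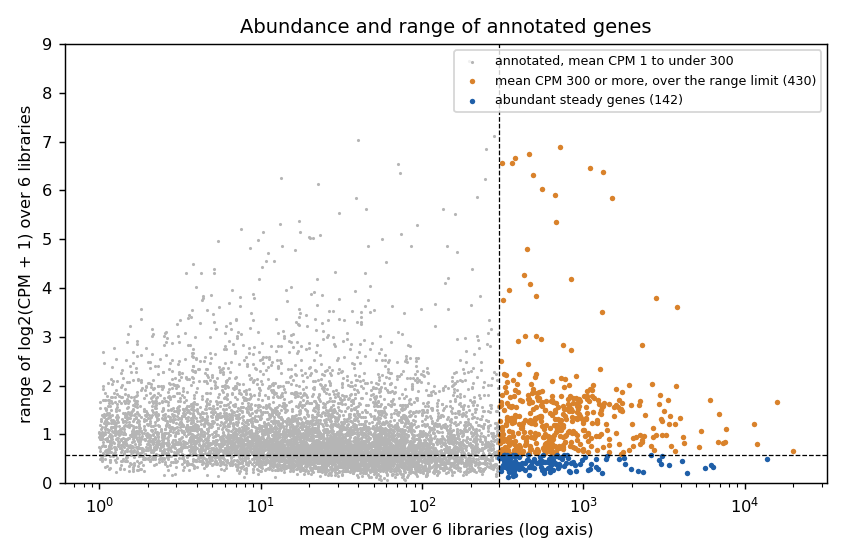
Range of log2(CPM + 1) over the 6 libraries against mean CPM (log axis) for annotated genes with a mean of 1 CPM or more, with dashed lines at both limits of the rule. The 142 steady genes fill the lower right corner, and the 430 other abundant genes lie above the line, up to a range of 6.90.

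Evenness was less common among the most abundant genes than among those of middling abundance. Of annotated genes with a mean CPM from 30 to under 100, 37.9% (870 of 2296) kept within the range limit, and 34.1% (366 of 1072) did so from 100 to under 300 CPM. From 300 to under 1000 CPM the share was 27.1% (115 of 425), and at 1000 CPM or more it was 18.4% (27 of 147). The median range was 0.692 log2 units at 30 to under 100 CPM and 1.09 at 1000 CPM or more. Below 10 CPM the share within the limit was also low, 16.2% from 3 to under 10 CPM, where counting error was not set against the range. Of the 430 abundant genes over the limit, 278 ranged by 1 log2 unit or more and 49 by 2 or more.

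Control libraries 1 and 3 kept many abundant genes out of the set. Of the 430 genes over the limit, 83 came within it when control 1 alone was left out and 88 when control 3 alone was left out. The number was 28 for control 2, and 8, 13 and 10 for metal libraries 1, 2 and 3. Whichever single library was left out, 240 of the 430 stayed over the limit. With both the mean and the range taken over the libraries left, the rule found 228 genes without control 1, 225 without control 3 and 170 without control 2. Those sets held 142, 139 and 141 of the 142 genes. Leaving out a library can only narrow a gene's range, so the 142 genes could drop out only through their mean. Their presence in these sets therefore follows largely from the rule. The genes found without control 1 held 22.9% of counts on average over the 6 libraries, those found without control 3 held 22.8% and those found without control 2 held 16.8%, against 13.7% for the 142 genes.

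Within the 142 genes the range had a median of 0.400 log2 units, which is a ratio of 1.32 between the highest and the lowest library. In 14 genes it was under 0.25, in 97 from 0.25 to under 0.5, and in 31 it was 0.5 or more. The coefficient of variation of CPM over the 6 libraries had a median of 10.5% and ran from 3.15% to 17.7%. Counting error alone, taken as Poisson, gives a median of 0.772% and at most 1.05% for these genes. The observed value was over 3 times the counting value in each of the 142 genes, with a median ratio of 13.7. Even the steadiest gene, Aterreus0G035710, had 3.15% against 0.976%. Counts of molecules copied by PCR are not independent, so the counting value covers counting error only.

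The spread was larger among the controls than among the metal libraries. The SD of log2(CPM + 1) had a median of 0.156 in the control group and 0.103 in the metal group, and the control SD was the larger in 99 of the 142 genes. In the abundant genes over the limit the medians were 0.576 and 0.208, with the control SD larger in 396 of 430. The distances between libraries within the 142 genes showed the same placing of control 2. It lay 0.170, 0.192 and 0.190 log2 units from metal 1, metal 2 and metal 3, and 0.249 and 0.256 from controls 1 and 3. Controls 1 and 3 were 0.244 apart, and the metal libraries were 0.162 to 0.237 apart. From the metal libraries control 1 lay 0.222 to 0.276 and control 3 lay 0.225 to 0.267. Within these genes controls 1 and 3 were thus no nearer to each other than to some metal libraries. In the abundant genes over the limit, control 2 was 0.412 to 0.577 from the metal libraries and 1.39 and 1.37 from controls 1 and 3. There controls 1 and 3 were 0.734 apart and 1.19 to 1.45 from the metal libraries. The range limit splits the sets by how far apart libraries lie, so these differences in SD and distance follow at least in part from the rule. It also keeps out of the 142 genes those in which controls 1 and 3 stood far from the metal libraries.

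Different libraries were the extreme ones in different genes. Control 3 was the highest library in 48 of the 142 genes, followed by control 1 in 28, metal 1 in 20, metal 3 in 17, metal 2 in 16 and control 2 in 13. The lowest library was control 1 in 34 genes, metal 2 in 27, control 2 in 26, metal 1 in 25, control 3 in 23 and metal 3 in 7. Metal 3 was thus the library least often at the bottom. The most frequent pairing, control 3 highest with metal 1 lowest, covered 16 genes, and control 3 highest with control 1 lowest covered 13. The median deviation of the 142 genes from their own means was 0.05 log2 units in control 3 and -0.02 in control 2, and between -0.01 and 0.01 in the others.

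**Figure D3:**
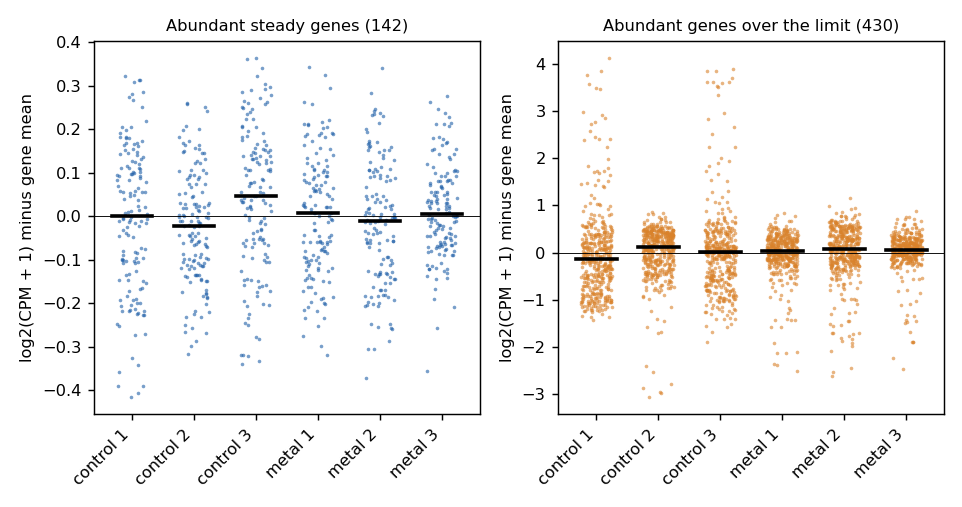
Deviation of each gene's log2(CPM + 1) from its mean over the 6 libraries, by library, for the 142 abundant steady genes (left) and the 430 abundant genes over the range limit (right, on a wider axis). Points are genes and bars are medians; the medians of the steady genes lie between -0.02 and 0.05, and the genes over the limit spread most in controls 1 and 3.

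Metal and control were compared with edgeR's quasi-likelihood test over all 9698 genes that passed its low-count filter, among them all 142. The range limit was set on the same libraries, so the outcome for the 142 genes follows in part from the choice and nothing is read from it. At a Benjamini-Hochberg adjusted p under 0.05, 0 of the 142 genes were higher and 0 lower in metal, where 0% of all tested genes were called in either direction. At an unadjusted edgeR p under 0.05 the counts were again 0 and 0 of 142, beside 1.86% of all tested genes higher and 6.75% lower. The fitted log2 fold changes of the 142 genes ran from -0.34 to 0.34 with a median of 0.03, beside a median of -0.0056 over all tested genes. Their median standard error was 0.21, against 0.28 over all tested genes, and their lowest edgeR adjusted p was 0.581.

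In 10 of the 142 genes the groups did not overlap in log2(CPM + 1). Every metal library exceeded every control in 6 genes, beside 5.81% of all tested genes, with log2 differences of group means of 0.13 to 0.30. Every metal library was under every control in 4 genes, beside 6.77% of all tested genes, with differences of -0.37 to -0.18. Without control 2, edgeR called 0 of the 142 genes in both directions at an adjusted p under 0.05, beside 6.56% of 9935 tested genes higher and 10.2% lower. DESeq2 without control 2 called 4 of them higher and 1 lower at the same threshold of its adjusted p, beside 11.7% and 13.2% of all tested genes. The log2 fold changes of those 4 genes were 0.44 to 0.53, and that of the lower one was -0.39.

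Gene lengths could be read from the 2 deposited tables together, since FPKM is the fragment count divided by a length per gene and a total per library, in scaled units. For each of the 142 genes exactly 1 whole number of bases met the values of all 6 libraries. The rule did not use these lengths, but its CPM limit is not scaled by length and so can bear on them. With an FPKM limit that as many genes passed, the median length of the set was 969 bases. They had a median of 1531.5 bases, with 25% of the genes under 1038 and 25% over 2126. The 430 abundant genes over the limit had a median of 1500 bases (quartiles 922.5 and 2317), and the 5469 genes with a mean CPM from 10 to under 300 had a median of 1779 bases (quartiles 1165 and 2730). In the last set a single whole number met the values in 89.2% of genes, and the nearest whole estimate stands for the rest. Steady and less steady abundant genes thus had similar median lengths, both below the median of the less abundant genes.

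The abundant sets differed more at the ends of the length distribution. Under 500 bases lay 7 of the 142 steady genes (4.93%) and 40 of the 430 genes over the limit (9.30%), and 3.86% of the less abundant genes. At 5000 bases or more lay 4 of the steady genes (2.82%), 4.88% of the genes over the limit and 4.22% of the less abundant genes. The length was a multiple of 3 in 77 of the 142 genes (54.2%), in 59.3% of the abundant genes over the limit and in 61.1% of the less abundant genes. No test was made of these shares, since genes are not replicates.

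The shortest and the longest gene of the set show how far length separates counts from levels. Aterreus0G058620, at 231 bases the shortest, gave 364, 333 and 323 CPM for the controls and 293, 440 and 438 CPM for the metal libraries. Metal 1 was its lowest library and the other metal libraries its highest. Aterreus0G063940, at 6605 bases the longest, gave 556, 526 and 540 CPM for the controls and 585, 581 and 607 CPM for the metal libraries. All 3 metal libraries lay above all 3 controls in this gene (edgeR log2 fold change 0.16 ± 0.19, SE, adjusted p = 0.735). Per length the order turned, with a mean FPKM of 1452 for Aterreus0G058620 and 78.9 for Aterreus0G063940.

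Per length, the levels of the 142 genes spread further than their counts. Mean FPKM ran from 59.1 to 9580, a ratio of 162, with a median of 358. The highest mean FPKM belonged to Aterreus0G067270, named here after its values were seen, a gene of 546 bases and number 6 among all annotated genes by FPKM. Aterreus0G068000, first of the set by CPM, has 2318 bases and was at a mean FPKM of 5500. The 20 leading genes by CPM and the 20 by FPKM had 12 genes in common. Across the 142 genes the Spearman correlation of length was -0.03 with mean CPM, -0.66 with mean FPKM, which contains the length, and -0.01 with the range. The limits of the rule cut off both mean CPM and the range, and so bear on these correlations. The median range was 0.392 in the 47 shortest genes and 0.393 in the 47 longest.

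**Figure D4:**
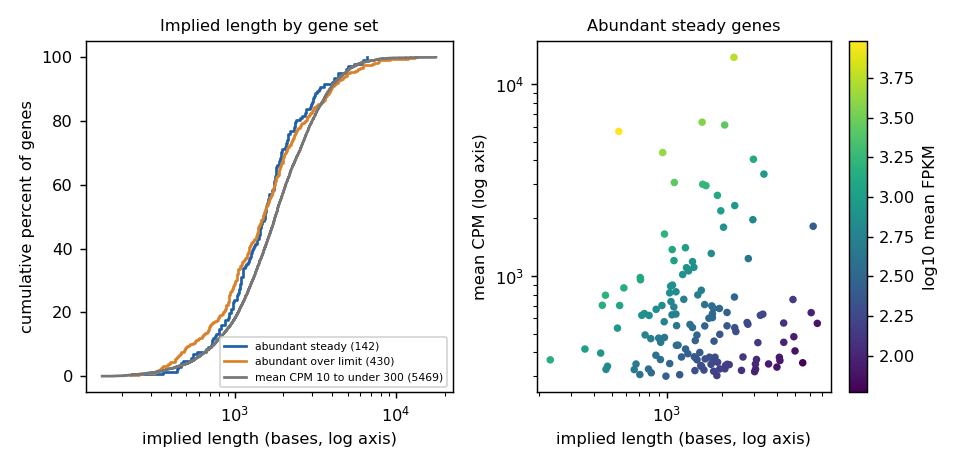
Left, cumulative percent of genes by implied length in bases (log axis) for the 142 abundant steady genes, the 430 abundant genes over the range limit and 5469 less abundant genes. Right, mean CPM against implied length for the 142 genes, coloured by log10 mean FPKM; short genes with many counts, such as the one at 546 bases, have the highest FPKM.

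A rule on FPKM in place of CPM picked a partly different set. The library totals behind FPKM were 1.06 to 1.07 times the column sums in the controls and metal 1, and 1.12 times the column sums in metal libraries 2 and 3. In log2(FPKM + 1), the median deviation of the 142 genes was -0.06 in metal 2 and -0.05 in metal 3, and 0.01 to 0.06 in the other libraries, and 133 of the 142 genes kept within the range limit. With the mean FPKM limit set so that as many genes passed it as reach 300 CPM (207 FPKM), 137 genes met the rule. They included 94 of the 142 genes, 66.2% of the original set and 68.6% of the FPKM set, and their median length was 969 bases.

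Identifier numbers run from 1 to 10784 in steps that are coded as 10, and the files do not say that they follow the genome. The 142 genes were spread over the whole range of numbers. Blocks of 1000 consecutive numbers held 7 to 18 of them, and a last shorter block held 11. As a share of the abundant genes of a block, they made between 14.6% (numbers 9001 to 10000) and 32.1% (numbers 8001 to 9000). The median step from one of the 142 genes to the next was 51 numbers, and the largest, from 7337 to 7798, was 461.

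**Figure D5:**
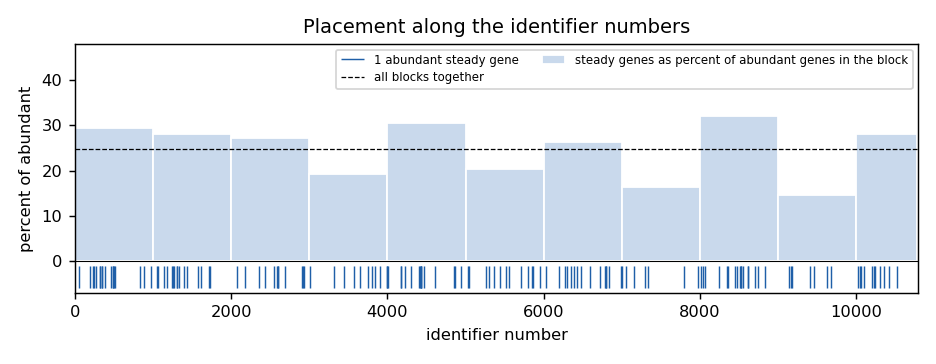
Ticks mark the 142 abundant steady genes along the identifier numbers, and bars give their percentage among all abundant annotated genes in each block of 1000 numbers. The bars lie between 14.6% and 32.1%, around 24.8% for all blocks together.

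Pairs of the 142 genes with neighbouring numbers were about as few as pairs 2 or 3 numbers apart. Of the 142 genes, 4 (2.82%) had another of them 1 number away, in 2 pairs. At 2 and 3 numbers apart the 142 genes made 3 and 2 pairs. Among the 430 abundant genes over the limit, 18.6% had another of their own set 1 number away, in 42 pairs. Those 430 genes made 22 and 23 pairs at 2 and 3 numbers apart. The sets differ in size, 142 against 430 genes, and no test of the difference was made. One pair began with Aterreus0G044230, which gave 2040, 2053 and 2431 CPM for the controls and 2085, 2330 and 2178 CPM for the metal libraries. Its partner Aterreus0G044240 gave 993, 1081 and 956 CPM for the controls and 1061, 1141 and 1147 CPM for the metal libraries. Control 3 was the highest library of the first gene and the lowest of the second. The other pair was Aterreus0G083540 at a mean of 326 CPM (3042 bases) and Aterreus0G083550 at a mean of 623 CPM (3230 bases). Metal 1 was the highest library of Aterreus0G083540 and control 1 that of Aterreus0G083550.

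The neighbours of the 142 genes were themselves expressed more than the average annotated gene. The 277 annotated genes outside the set that lie 1 number away had a median mean CPM of 34.5, against 14.7 over all annotated genes. Of these neighbours 10.8% had a mean under 1 CPM, against 22.2% of all annotated genes. A mean of 300 CPM was reached by 4.69% of the neighbours and by 5.30% of all annotated genes. The share for all annotated genes is raised by the 142 genes, which all reach 300 CPM and are left out of the neighbours. These shares therefore do not show whether the neighbours reached 300 CPM less often. The neighbours of the abundant genes over the limit were similar, with a median of 23.8 CPM and 11.6% under 1 CPM. Among neighbours of the 142 genes with a mean of 10 CPM or more, 73 of 197 (37.1%) kept within the range limit. The share was 32.9% of all annotated genes at that level, which is likewise raised by the 142 genes, all within the limit. The strand setting of the counts is not given, so reads shared with an overlapping neighbour cannot be told apart from the neighbour's own.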

How the data were processed

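RNA-seq of 6 mycelium libraries was analysed from 2 tables. The count table deposited by the authors holds whole numbers per gene. In 99.8% of the 852 values of the 142 genes, the estimated count implied by the deposited FPKM lay within 1 below the whole number (tolerance 0.02), as for non-whole estimates rounded up. FPKM values were deposited by the authors with no account of their calculation. TopHat2 and DESeq are named in the submitters' processing notes, with no role. For the counting program, genome build, annotation and strand the entry is: not given in the sources used here. There were 0 columns of other samples.

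CPM used column sums. Library totals behind FPKM were found from 128 genes with 20000 or more counts in every library, as the scaling between 0.7 and 1.3 of the column sum at which lengths came out whole. Metal was tested against control with edgeR 4.0.16 in R 4.3.3 (filterByExpr, TMM scaling, robust quasi-likelihood F test, Benjamini-Hochberg adjustment over all tested genes, threshold 0.05), with the deposited whole numbers as input; the procedure was tested on simulated counts. DESeq2 1.42.0 was an alternative. A standard error is the size of the log2 fold change over the square root of F. Named genes are the 3 of highest mean CPM, the 3 of smallest range, those next to each limit, the shortest and longest, and those with consecutive numbers. The members, the rule and the tests were chosen with earlier results of these data known. No gene list was used, since no identifier matched a name.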

Additional observations from a re-analysis of the deposited data

Results flagged for a closer look

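Features marked as new genes were outside the rule, which takes annotated identifiers only. Of these features 6 had a mean of 300 CPM or more, from 308 to 4035 CPM, and together held 0.492% to 1.03% of the counts of a library. These features lay outside the sets of annotated genes described above. The column sums and the tests of metal against control did take in features marked as new. Their ranges ran from 0.739 to 2.64 log2 units, so 0 of the 6 would have met the range limit.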

How the results depend on the processing

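TMM scaling gave 142 genes, 126 of them shared with the original 142, and a median length of 1551.5 bases; DESeq2 size factors gave 146 genes, 123 of them shared; a pseudocount of 0.1 gave the same 142. A minimum of 200 CPM gave 236 genes with 16.0% of counts, a median of 1633.5 bases and 8 consecutive pairs, and a minimum of 500 CPM gave 76 genes with 11.2%, 1506 bases and 1 pair. A range limit of 0.5 gave 111 genes with 11.5%, 1533 bases and 1 pair, and a limit of 1 gave 294 genes with 32.9%, 1611.5 bases and 10 pairs. The FPKM rule gave 12.1% of counts, 969 bases and 4 pairs. Column sums without the 10 most abundant features, a choice made after seeing the data, gave 166 genes with 14.3% and 1515 bases. With single libraries left out, which can only narrow a gene's range, the rule gave 151 to 228 genes and 14.4% to 22.9% of counts. The medians were 1466 to 1693 bases, with 2 to 10 pairs. Over 1.5 times as many genes were found without control 1 (228) and without control 3 (225).

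For metal against control, edgeR called 0 of all tested genes and 0 of the 142 under RLE and total-count scaling, with no filter, without the 10 most abundant genes and with the replicate number as a block. DESeq2 called 146 of 9698 tested genes, 8 higher and 138 lower in metal. Of these, 0 were among the 142, which follows in part from the range limit. Leaving out single libraries gave 0 to 1661 genes, above 0 only without control 2 (9935 genes tested), and 0 of the 142 each time. DESeq2 without control 2, added after seeing the data, called 2471 of 9935 tested genes, 5 of them among the 142. The cause was not tested. Same-numbered libraries had correlations of deviations from group means of 0.10, 0.23 and 0.19, and differently numbered ones -0.40 to 0.33. Depth was not a limit for these genes, whose counting error was at most 1.05%.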
